A study of Mus musculus with 8 samples.

Results

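The centromere-proximal peaks of 5-hydroxymethylcytosine (5hmC) were taken as every peak on chromosomes 1 to 19 with its midpoint below 6 Mb in the mouse build mm9, where the centromere lies at the low-coordinate end. The rule kept 7054 of the 393283 peaks in 8 deposited peak lists (1.79%). Hippocampal DNA of C57BL/6 mice was compared in 4 groups of 2 samples. Aged enriched mice were 18 months old and spent 5 h a day for 4 weeks in a roomy chamber furnished with toys, tunnels, bedding and an exercise wheel. Aged control mice were 18 months old and stayed in standard cages. Young enriched mice were 6 weeks old and had the same enrichment, and young control mice were 6 weeks old and stayed in standard cages. The labels name no allele, transgene or drug in any group, and whether samples of 1 group were separate or pooled mice is not stated in them. The p-values therefore cover the spread between samples alone, and that spread may be technical.

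5hmC is made from 5-methylcytosine by the TET enzymes, is plentiful in neurons and is commonly found in the bodies of active genes and at enhancers. The mouse autosomes are acrocentric, so their low-coordinate ends adjoin the centromere, which is built of minor and major satellite repeats packed as constitutive heterochromatin. The satellite arrays themselves are largely missing from the assembly, and the peaks described here lie in the placed sequence next to them. In the assay a glucosyltransferase attaches a modified glucose to 5hmC, biotin is clicked onto it, and the captured fragments are sequenced, so a peak marks local enrichment of 5hmC-bearing DNA and gives no level per cytosine.

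Position chose the members, so it gives no check of the label. Their lowest start in any list was base 2999903 (chromosome 9), at the edge of the placed sequence. The X chromosome, which the rule leaves out, had 0 peaks below 6 Mb in every list. The members just inside the limit had midpoints 1195 to 2813 bp below it and scores of 51.0 to 86.5, and the 5 nearest outside it lay 436.5 to 3736.5 bp above it with scores of 51.6 to 79.3. A score is the authors' own value for a peak, higher for a stronger peak, and was ranked only within a list. An alternative that kept peaks scoring at least 100 put the same limit on every list, but it was not equally strict in each. It kept 71.6% of the members in aged enriched replicate 2, 10.0% in aged enriched replicate 1 and 19.5% to 32.1% in the others. No DNA sequence is shown and no peak was assigned to a gene, because the gene table used here belongs to another build (GRCm38.p6). In the gene order of that table the centromeric end of chromosome 12 carries Dnmt3a, a DNA methyltransferase, between Dtnb and Pomc, the precursor of melanocortin and opioid peptides. The end of chromosome 17 carries Arid1b, a chromatin remodelling subunit, between Nox3 and Tmem242. Whether any 5hmC peak lies in these genes was not determined.

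The number of members followed the length of each list. Aged enriched replicates 1 and 2 had 439 and 538 members, aged control replicates had 1085 and 707, young enriched replicates had 1000 and 1063, and young control replicates had 816 and 1406. Lists held 25548 to 78980 peaks, and read depth is unknown, so a count of members cannot be told apart from how much was detected in a sample. As a share of the list, the members made up 1.72% and 1.74% in aged enriched, 1.83% and 1.86% in aged control, 1.74% and 1.79% in young enriched, and 1.87% and 1.78% in young control samples. The share thus varied little where list length varied widely. Aged enriched replicate 2 stood apart from the others in peak shape: its members had a median width of 428 bp, against 655 bp in aged enriched replicate 1 and 740 to 941.5 bp in the other 6 samples.

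Peaks were slightly sparser at the centromeric ends than along the rest of the autosomes. Density was counted per Mb from the first peak of each chromosome to 6 Mb. It was 9.60 and 11.8 peaks per Mb in aged enriched, 23.7 and 15.5 in aged control, 21.9 and 23.2 in young enriched, and 17.8 and 30.8 in young control samples. The ratio of this density to that of the remaining autosomal sequence was 0.897 and 0.911 in aged enriched, 0.957 and 0.973 in aged control, 0.908 and 0.934 in young enriched, and 0.976 and 0.930 in young control samples. It was below 1 in all 8 samples, with a mean log2 ratio of −0.10 ± 0.05 (SD, n = 8, exact two-sided sign-flip permutation test, p = 0.0078125, the smallest the test can give). With a span of 3 Mb for each of the 19 autosomes, empty stretches included, the log2 ratio was −0.41 (exact p = 0.0078125). With peaks scoring at least 100 only, the log2 ratio was −0.07 and the exact test no longer passed (p = 0.102). With the adjoining 6 to 9 Mb as the reference in place of the whole autosomes, the direction turned and the centromeric ends were denser (log2 ratio 0.48, exact p = 0.0078125), or 0.23 with a span of 3 Mb for every chromosome (exact p = 0.0078125).

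Peaks were unevenly spread along the first megabases. The window from 3 to 4 Mb, summed over the 19 autosomes, held 0.435 ± 0.0376% of a list (mean ± SD, n = 8), that from 4 to 5 Mb held 0.588 ± 0.0368%, and that from 5 to 6 Mb held 0.768 ± 0.0308%. The values for 6 to 7 Mb and 7 to 8 Mb were 0.536% and 0.321%. The share therefore climbed through the 3 windows of the rule and was lower in both those windows beyond it, against an average of 0.795% for 1 Mb of every autosome. It rose again to 0.671% at 8 to 9 Mb and was 0.717% at 12 to 13 Mb, so changes of this size also occurred beyond the limit. Of the 3052 peaks at 5 to 6 Mb over all lists, 912 lay on chromosome 17, whereas 4 to 5 Mb held 2290 in all. Each of the 8 samples had its lowest share of the 3 windows of the rule at 3 to 4 Mb and its highest at 5 to 6 Mb.

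The centromeric ends of single chromosomes differed far more than the average did. Of 18 chromosomes with a member, 5 were denser at the centromeric end than along their remaining length (chromosomes 2, 11, 12, 17 and 19, 27.8%) and 10 were sparser (chromosomes 1, 3, 4, 5, 8, 9, 10, 13, 15 and 18, 55.6%), each in all 8 samples (exact sign-flip permutation test, Benjamini-Hochberg adjusted p = 0.00938 for each). Chromosomes 6, 7 and 16 did not pass (adjusted exact p of 0.0527, 0.108 and 0.109). Chromosome 14 had no member, its first peak in any list starting at base 8596817. When every chromosome was given the full span of 3 Mb, 5 ends were denser and 12 sparser.

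Chromosome 19 had the densest end. It carried 77 and 66 members in aged enriched, 197 and 134 in aged control, 153 and 143 in young enriched, and 150 and 210 in young control samples. Its density was 51.6 ± 18.5 peaks per Mb at the end and 25.2 ± 8.70 over the rest of the chromosome (SD, n = 8), a ratio of 2.03. Chromosome 17 followed, with 71 and 83 members in aged enriched, 163 and 101 in aged control, 167 and 178 in young enriched, and 127 and 224 in young control samples. Its end held 48.5 ± 18.4 peaks per Mb and its remainder 27.3 ± 9.62 (n = 8). Chromosome 11 came after them, at 42.9 ± 15.8 against 28.4 ± 10.0 peaks per Mb. Every sample had a higher density at the end than over the rest on each of the 3 chromosomes. The ends of chromosomes 2 and 12 were denser too, at 35.8 ± 14.7 against 20.2 ± 7.43 and at 29.1 ± 10.97 against 18.4 ± 6.72 peaks per Mb. These 5 chromosomes held 66.997% of all members, and in single samples between 62.8% (aged enriched replicate 2) and 69.5% (young control replicate 1).

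At the other extreme, chromosome 9 had 18 members over all lists (0.750 ± 1.09 peaks per Mb, against 23.6 ± 8.71 over the rest of the chromosome, n = 8). Chromosome 3 had 4 (0.778 ± 1.18 against 14.4 ± 5.40 peaks per Mb) and chromosome 1 had 18 (1.27 ± 1.12 against 15.3 ± 5.74). The ratio to the rest of the chromosome was lowest on chromosomes 9, 4 and 1, at 0.0259, 0.0741 and 0.0776 with 0.5 peak added to each count. That order holds for a span counted from the first peak. With a span of 3 Mb it was lowest on chromosomes 3, 9 and 1, at 0.0198, 0.0259 and 0.0457, and chromosome 4 followed at 0.0617. Together the 6 chromosomes 1, 3, 4, 9, 13 and 14 held 125 members, or 1.77% of all. The first peak on chromosome 1 started at base 4232930, so part of that end was empty in every list.

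**Figure D1:**
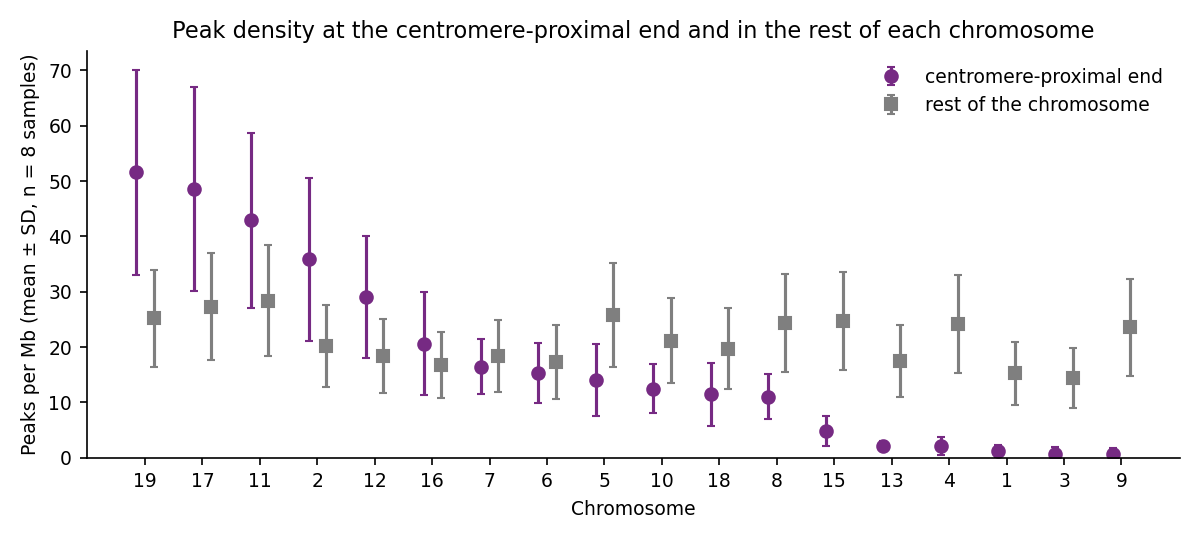
Peaks per Mb (mean ± SD, n = 8 samples) at the centromere-proximal end (purple circles) and over the rest of the chromosome (grey squares), for the 18 chromosomes with a member, ordered by the density of the end. The purple values run from 51.6 on chromosome 19 to 0.750 on chromosome 9, whereas the grey values stay between 14.4 and 28.4.

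The members of chromosome 9 included a cluster seen in 1 sample. All 10 of the chromosome 9 members of aged enriched replicate 2 lay between bases 2999903 and 3036707, with scores of 51.4 to 569. None of the other 7 lists had a peak there, and their first peak on that chromosome started at base 3576275. The strongest of the 10, at 3035577 to 3036707, was also the highest-scoring member of that sample. Aged enriched replicate 2 is the sample with the narrow peaks described above, and the part of that difference in the cluster was not tested.

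By 1 Mb window, 48 of the 57 windows at the centromeric ends held a peak. The 9 empty ones were all 3 windows of chromosome 14, 3 to 4 Mb of chromosomes 1 and 3, 4 to 5 Mb of chromosomes 3 and 13, and 5 to 6 Mb of chromosomes 8 and 9. The 5 windows richest in peaks held 37.5% of the members. They were 5 to 6 Mb of chromosome 17, 5 to 6 Mb of chromosome 19, 4 to 5 Mb of chromosome 2, 5 to 6 Mb of chromosome 11 and 4 to 5 Mb of chromosome 19, with 912, 521, 441, 405 and 365 peaks over all lists. The 5 poorest windows with a peak, each at 0.00158% of a list or less on average, were 5 to 6 Mb of chromosomes 1 and 3 and 3 to 4 Mb of chromosomes 4, 6 and 18.

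The window at 5 to 6 Mb of chromosome 17 ranked 11th of 2174 autosomal windows with a peak and alone held 12.9% of the members. It had 60 and 60 peaks in aged enriched, 139 and 81 in aged control, 137 and 148 in young enriched, and 104 and 183 in young control samples. As a share of the list this was 0.235% and 0.195% in aged enriched, 0.235% and 0.213% in aged control, 0.238% and 0.249% in young enriched, and 0.238% and 0.232% in young control samples. Aged enriched replicate 2 was the lowest and the other samples lay close together. Peaks covered 4.40% and 2.85% of the window in aged enriched, 13.8% and 7.53% in aged control, 14.8% and 16.7% in young enriched, and 11.2% and 23.1% in young control samples, an order that moves with list length and peak width. Within the window, peaks were concentrated in its first part: the 4 stretches of 100 kb from 5.0 to 5.4 Mb held 159, 136, 162 and 104 peaks over all lists, and the stretch from 5.4 to 5.5 Mb held 36.

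The members resembled the other peaks in width and strength. Their median width was 655 and 428 bp in aged enriched, 868 and 740 bp in aged control, 885.5 and 919 bp in young enriched, and 923.5 and 941.5 bp in young control samples. The ratio to the median width of the other autosomal peaks lay between 0.989 and 1.02, and its mean log2 value was 0.0045 ± 0.015 (SD, n = 8, exact sign-flip permutation p = 0.484). The median member stood at the 54.7th and 48.1st score percentile of its own list in aged enriched, the 49.7th and 54.4th in aged control, the 48.9th and 50.3rd in young enriched, and the 52.1st and 50.0th in young control samples. The mean offset from the middle of the list was 1.01 ± 2.46 percentile points (exact p = 0.3125). With each chromosome weighted equally the offset was −3.61 points and passed the exact test (p = 0.0469), so this measure depends on how chromosomes are weighted. Equal weight lets near-empty ends, such as that of chromosome 3 with 4 members over all lists, count as much as the fullest. Ends without a peak in a sample were skipped for that sample.

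Overlapping peaks of all lists were merged into regions, which gave 2811 at the centromeric ends and 153849 on the remaining autosomal sequence, with median widths of 887 and 892 bp. A peak in all 8 samples was found in 42 of the proximal regions (1.49%), beside 1.31% of all autosomal regions. A peak in 1 sample was found in 1336 (47.5%), against 46.7% of the other regions. These shares were near the background throughout. Of the 42 regions present in all samples, 22 lay on chromosomes 17 and 19, with 11 on each. These chromosomes also held many of the proximal regions, 374 and 354 of the 2811, of which 2.94% and 3.11% had a peak in all samples. Of the proximal regions of aged enriched replicate 2, 59.1% had a peak in at least 1 other sample, against 65.6% of its other regions, and it was the lowest of the 8 samples on both measures.

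**Figure D2:**
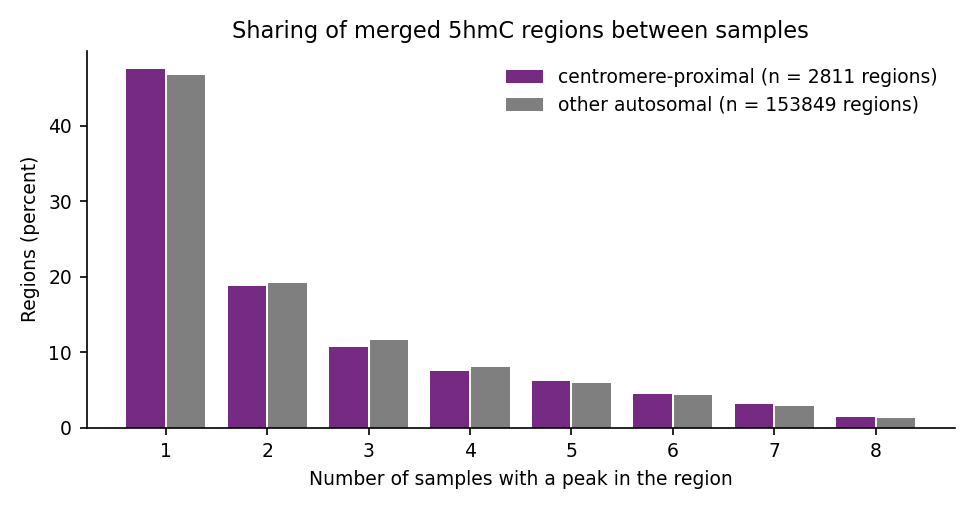
Percent of merged regions (vertical axis) that had a peak in 1 to 8 samples (horizontal axis), for 2811 centromere-proximal regions (purple) and 153849 other autosomal regions (grey). The paired bars are of nearly equal height, at 47.5% and 46.7% for regions seen in 1 sample and 1.49% and 1.31% for those seen in all 8.

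The strongest of the regions with a peak in every sample, by mean score percentile within each list, lay at chr7:4980175-4984005. Its highest scores were 299 and 297 in aged enriched, 945 and 683 in aged control, 821 and 588 in young enriched, and 758 and 696 in young control samples. In the list of each sample it stood at the 99.2nd percentile or above. Next came chr16:4647257-4650337, with scores of 106 and 167 in aged enriched, 522 and 133 in aged control, 357 and 382 in young enriched, and 532 and 653 in young control samples. Within their lists these scores stood at the 87.1st to 99.9th percentile, and scores of different lists are not compared. The third, at chr17:5266666-5272710, was also the widest of all proximal regions at 6045 bp and lies in the peak-rich part of the window described above. The other 5 of the 8 strongest were at chr2:4524017-4525699, chr11:5870910-5873097, chr19:5828545-5832947 and chr19:5305918-5308305, and chr12:4133869-4136172, with mean percentiles of 92.2 to 94.1. The next widest regions were at chr12:4191946-4197156 (5211 bp, a peak in all 8 samples) and at chr19:5379275-5384349 (5075 bp, a peak in 5 samples and in neither aged enriched sample).

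The share of the list at the centromeric ends was compared between housings and between ages. It averaged 1.75 ± 0.0291% over the 4 enriched and 1.83 ± 0.0395% over the 4 control lists (mean ± SD), a log2 difference of −0.07 that missed the threshold (exact two-sided permutation test, 70 assignments, p = 0.0571). The housings overlapped through young control replicate 2, at 1.78%, which lay below young enriched replicate 2, at 1.79%. Without young control replicate 2 the log2 difference was −0.08 with p = 0.0286 by the exact test, and with all lists reduced to the length of the shortest it was −0.10 with p = 0.0286, so this comparison depends on those choices. With a limit of 9 Mb in place of 6 Mb the difference was −0.02 (exact p = 0.343). Without chromosome 19 the difference was −0.02 (exact p = 0.6), and without chromosome 9 it was −0.08 (exact p = 0.0571). Both alternatives were chosen after seeing the data, and no other chromosome was left out in this way. Within ages the log2 difference was −0.09 for aged enriched against aged control and −0.05 for young enriched against young control samples, too few samples for a test to pass. The interaction of age and housing was −0.04 on the log2 scale (exact permutation within ages, p = 0.611).

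The ages did not separate. Aged samples averaged 1.79 ± 0.0678% and young samples 1.79 ± 0.0533% (SD, n = 4 each), and the log2 difference was −0.0042 (exact permutation test, p = 0.943), with the aged samples spanning 1.72% to 1.86% and the young samples 1.74% to 1.87%.

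**Figure D3:**
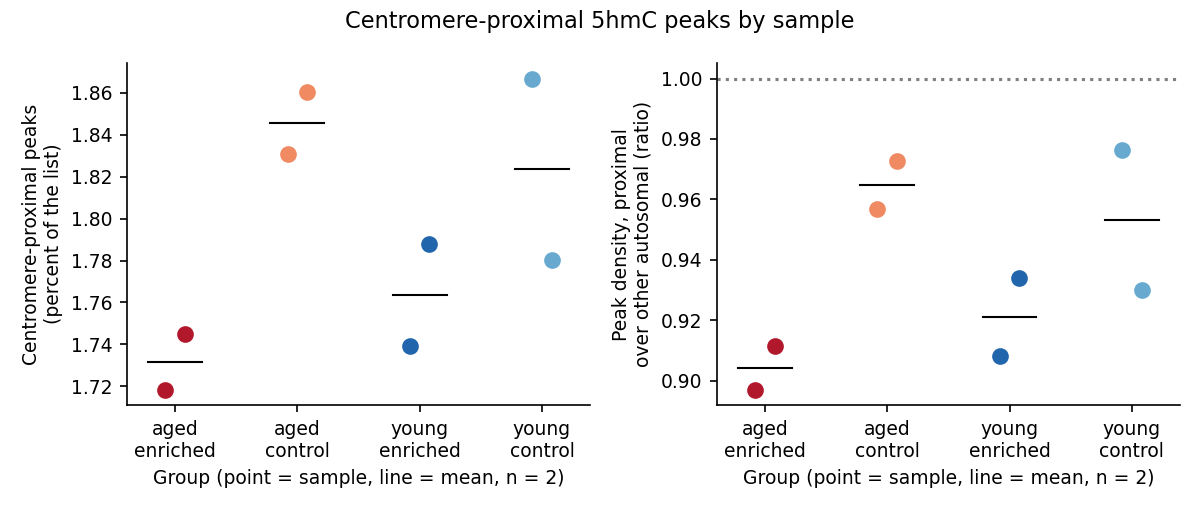
Centromere-proximal peaks as a percent of each sample's list (left) and the ratio of their density to that of other autosomal peaks (right, with a dotted line at 1), by group. Each point is 1 sample and each line the mean of 2. Aged enriched samples are at 1.72% and 1.74%, below both aged control samples, and every ratio on the right lies under 1.

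No single proximal window changed with housing or age at the adjusted threshold. Of the 1548 windows of the genome with a mean of at least 5 peaks, 32 were centromere-proximal and held 6803 of the members. The 251 members in the other 16 windows with a peak were not tested. limma called 0 of these 32 in any of 5 comparisons at an adjusted p under 0.05. Over all windows it called 2.39% higher and 1.23% lower for aged enriched against aged control, 0% either way for young enriched against young control and for aged against young, and 0.0646% higher and 0% lower both for enriched against control and for the interaction. The calls for aged housing depend on the pseudocount (peaks added to each count, here 1) and on how the spread was estimated. With a pseudocount in proportion to list length, limma called 13 of 1548 windows higher and 8 lower. With the samples of the contrast alone, limma called 0 of 1439 windows for aged and 0 of 1607 for young housing. With each group weighted by its own spread, it called 8 of 1548 higher and 4 lower for aged housing, with 0 proximal windows among them. At an unadjusted p under 0.05 by limma, 6, 1, 4, 1 and 2 of the 32 windows passed for aged enriched against aged control, young enriched against young control, enriched against control, aged against young and the interaction, beside 24.0%, 0.969%, 13.4%, 9.63% and 11.3% of all windows tested. The median log2 difference over the 32 windows was −0.05 for aged enriched against aged control and −0.06 for enriched against control, beside 0.11 and 0.05 over all windows. Neither sign of the proximal median is stable: over the alternatives it ran from −0.19 to 0.08 for aged enriched against aged control and from −0.13 to 0.02 for enriched against control. In each alternative it lay below the median over all windows of the same fit. Without a filter, for example, it was 0.08 beside 0.26 for aged housing. Windows are not replicates, and this difference was not tested.

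The window nearest the threshold for aged housing was at 3 to 4 Mb of chromosome 11. It held 13 and 17 peaks in aged enriched samples (0.0509% and 0.0551% of the list), against 50 and 33 in aged control samples (0.0844% and 0.0868%). The groups did not overlap, and the log2 difference was −0.63 ± 0.21 (SE, limma adjusted p = 0.0791, between 0.0693 and 0.872 over the alternatives). Young samples lay between them, at 0.0678% and 0.0740% in young enriched and 0.0755% and 0.0646% in young control samples. Also lower in aged enriched samples without passing were 4 to 5 Mb of chromosome 5 (log2 difference −1.03 ± 0.37, limma adjusted p = 0.101) and 4 to 5 Mb of chromosome 16 (−0.70 ± 0.26, limma adjusted p = 0.108). The highest difference was at 4 to 5 Mb of chromosome 17, with 4 and 12 peaks in aged enriched and 6 and 4 in aged control samples (1.20 ± 0.48, limma adjusted p = 0.137), where aged enriched replicate 2 held most of the gain. Without aged enriched replicate 1 the log2 differences of the windows on chromosomes 5, 16 and 17 were −1.16, −0.96 and 1.76. At 4 to 5 Mb and 5 to 6 Mb of chromosome 19 they were −0.58 and −0.79. That fit leaves 1 aged enriched sample, replicate 2, so passing the threshold is not read from it. With all samples the windows at 5 to 6 Mb of chromosome 10 and 3 to 4 Mb of chromosome 7 had log2 differences of 0.69 and 0.59.

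Over both ages the smallest p belonged to 4 to 5 Mb of chromosome 5. It held 3, 3, 12 and 10 peaks in the 4 enriched samples, against 18, 9, 20 and 26 in the 4 control samples. As shares of the list the housings did not overlap, at 0.00973% to 0.0209% in enriched and 0.0237% to 0.0458% in control samples. The log2 difference was −1.01 ± 0.26 (SE, limma adjusted p = 0.193, up to 0.734 over the alternatives). It was −1.07 without aged enriched replicate 1 and −0.94 without replicate 2, fits that leave 1 aged enriched sample. The lower end of the range of adjusted p came from such a fit and is therefore not given. In young samples alone this window was the lowest too, at −0.99 ± 0.37 (limma adjusted p = 0.996). Both upper windows of chromosome 19 were lower in enriched samples without passing, at −0.36 ± 0.14 for 5 to 6 Mb and −0.32 ± 0.15 for 4 to 5 Mb (limma adjusted p of 0.310 and 0.368). Without aged enriched replicate 1 these differences were −0.52 and −0.47.

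For age, the window with the smallest p was 5 to 6 Mb of chromosome 2, with 11, 15, 19 and 17 peaks in aged samples and 40, 35, 21 and 51 in young samples (log2 difference −0.47 ± 0.18, limma adjusted p = 0.432). Its shares were 0.0321% to 0.0487% of the list in aged and 0.0480% to 0.0696% in young samples, which overlapped.

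**Figure D4:**
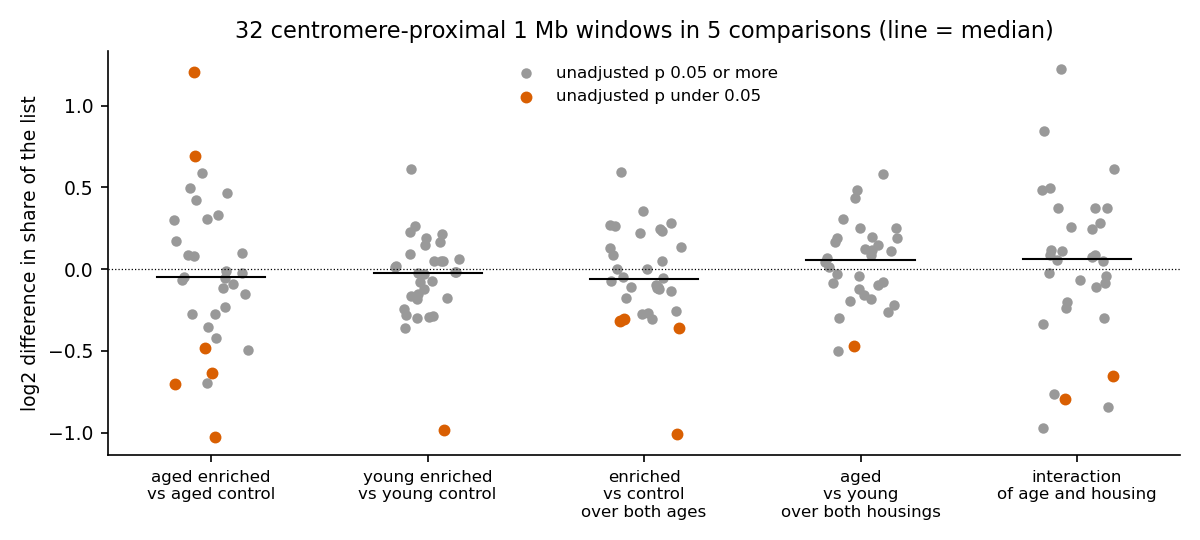
log2 difference in share of the list for the 32 centromere-proximal windows of 1 Mb in the 5 comparisons (1 point a window, the line is the median). Orange points have an unadjusted limma p under 0.05. Points lie on both sides of 0 in each comparison and none passes the adjusted threshold.

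Regions with a peak on 1 side of a comparison and none on the other were counted too. Both aged enriched samples and neither aged control sample had a peak in 13 proximal regions (0.462%, against 0.562% of all regions), and the reverse held for 167 (5.94%, against 5.6%). Both young enriched and neither young control samples had one in 60 (2.13%, against 2.13%), and the reverse held for 85 (3.02%, against 2.78%). The member shares were near the background in each case. With all lists reduced to the length of the shortest, the aged counts were 23 and 79 and the young counts 35 and 32. The shares over all regions were not counted for those shorter lists. No proximal region had a peak in all 4 enriched and no control samples (0.014% of all regions did), and 5 had the reverse (0.178%, against 0.209%). No proximal region had one in all 4 aged and no young samples (0.00957% of all regions did), and 24 had the reverse (0.854%, against 0.894%).

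Among regions seen in both aged enriched samples and neither aged control sample, the highest mean percentile was at chr10:4797952-4799571, with scores of 74.5 and 170 in aged enriched samples and a peak in 3 young samples. It was followed by chr17:5166700-5170903 and chr2:3686562-3687850, each with a peak in all 4 young samples. In the other direction the leading region was at chr19:5080744-5083377, with scores of 195 and 184 in aged control, 241 and 254 in young enriched, and 267 and 320 in young control samples and no peak in either aged enriched sample. It stood at the 95.6th percentile or above in each of those 6 lists, so it was among the stronger peaks wherever it was listed. The next were chr12:5220778-5222899 and chr2:3142369-3145207. The regions of all 4 young and no aged samples were led by chr12:4205926-4207449, chr7:3264153-3265535 and chr12:5243272-5246289, with young scores of 87.5 to 191.

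In young samples the leading regions of the enriched side lay at chr11:3265442-3266974 and chr11:3761666-3763765 and at chr12:3879237-3880691, and each had a peak in 1 or 2 aged samples too. Those of the control side lay at chr17:4940082-4941237, chr12:3387208-3389012 and chr11:3549609-3550556. Of the 5 regions with a peak in all 4 control and no enriched samples, the leading one was at chr8:4245140-4246239, with scores of 98.7 and 139 in aged control and 81.5 and 89.2 in young control samples. Within their lists these scores stood at the 60.01st to 93.7th percentile.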

How the data were processed

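The authors deposited 1 peak list per sample, with a chromosome, start, end, name and score for each peak. The score is the authors' value per peak as deposited, ranked only within a list, and a minimum of 100 applied to all lists was an alternative. Per the submitters' processing notes, the tools were MACS 1.4.2, Bowtie 0.12.9 and CASAVA 1.4 and the build mm9. No source used here gives caller settings or read numbers, so depth is unknown, and longer lists can reflect more reads or better capture. Lists were called per sample.

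Members and lists were chosen with earlier results of these data known. Positions are mm9, counted from 1. Per-sample values were compared by exact permutation tests over samples (Python 3.11.15, scipy 1.17.1). Peaks were counted by midpoint in 1 Mb windows. log2((peaks + 1)/list length per 1000000 peaks) was fitted with limma 3.58.1 (R 4.3.3, intensity trend, 4 groups, Benjamini-Hochberg over 1548 windows, threshold 0.05), tested on simulated data. Peaks overlapping by 1 bp were merged. Named were the 8 strongest and 3 widest regions, the 5 richest and poorest windows, the 3 densest and sparsest chromosomes, and 3 per comparison and direction (a selection is printed for the windows). Same-numbered samples did not deviate together, so numbers were not used as pairs.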

Additional observations from a re-analysis of the deposited data

Results flagged for a closer look

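Of 99 series of values examined for a sample far from the rest, over all 8 samples or over 4 of 1 age, 10 had one. The series were peaks per window and share of the list per chromosome end. They also took in the total share, density ratio, width ratio and median score percentile of the members. By the nominal rate of the 95% critical value, chance gives about 1 in 20, and in series made of counts of 0 and 1 a single peak is enough. No cause was tested for any of them.

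At 3 to 4 Mb of chromosome 9, aged enriched replicate 2 had 10 peaks, far above the other 7 samples and also above the other 3 aged samples, where it had 10 against 0. The same peaks put it apart in the share of its list at the end of chromosome 9, at 0.0324%, both among all 8 samples and among the 4 aged samples (0.0324%). Without chromosome 9 the comparisons of shares between housings and ages kept their direction and their side of the threshold. Aged enriched replicate 2 was also highest at the end of chromosome 10, with 0.104% of its list, against 0.0607% to 0.0774% in the other 7 samples.

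Aged control replicate 1 was highest at the end of chromosome 11, with 0.287% of its list, against 0.232% to 0.253% in the others. It was the lowest aged sample at the end of chromosome 13, with 0.00675%. It was the sole aged sample with a peak at 5 to 6 Mb of chromosome 1, where it had 1. Aged enriched replicate 2 was the sole aged sample with a peak at 5 to 6 Mb of chromosome 3, where it had 1, or 0.00324% of its list at that end.

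The order of the housings was opposite in the 2 ages at the end of chromosome 11, by a very small margin in young samples. Both aged enriched samples, at 0.239% and 0.237% of their lists, lay below both aged control samples, at 0.287% and 0.253%. Aged control replicate 1, at 0.287%, is the sample named above as far from the rest at this end. Both young enriched samples, at 0.238% and 0.237%, lay above both young control samples, at 0.236% and 0.232%. The nearest young values were 0.2371% (141 peaks, young enriched replicate 2) and 0.2356% (103 peaks, young control replicate 1), so the young order is not read as a difference. The difference between the ages was −0.0360 percentage points and was not tested.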

How the results depend on the processing

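The density ratio stayed negative on the log2 scale in every alternative except with the adjoining 6 to 9 Mb as the reference (0.48, or 0.23 with a span of 3 Mb, an alternative chosen after seeing the data). It missed the threshold with scores of at least 100 (−0.075). Leaving out 1 sample gave −0.11 to −0.088. The counts of denser and sparser ends stayed at 5 and between 10 and 12. The housing difference in share passed with equally long lists (−0.10) and ranged from −0.084 to −0.062 with 1 sample left out and from −0.11 to −0.019 over the other alternatives (−0.021 with a limit of 9 Mb). The age difference, near 0, turned positive with a limit of 5 Mb (0.059) and without aged enriched replicate 1 (0.015), aged enriched replicate 2 (0.0074) or young control replicate 1 (0.015). It ranged from −0.023 to 0.015 with 1 sample left out and from −0.025 to 0.059 over the other alternatives. The interaction turned positive with a limit of 9 Mb (0.012). The log2 width ratio turned negative with limits of 5 and 9 Mb (−0.0022 and −0.0016) and with chromosomes weighted equally (−0.033), as did the percentile offset (−3.61). No test of these passed except that of −3.61. The untested young housing difference moved to −0.088 with a limit of 5 Mb, −0.092 with scores of at least 100 and −0.083 with equally long lists (−0.082 to −0.014 with 1 sample left out). The aged one moved to −0.015 with a limit of 9 Mb, −0.13 with scores of at least 100 and −0.13 with chromosomes weighted equally. The causes were not tested.

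limma called 1 proximal window for aged housing with a pseudocount of 4 peaks (chromosome 17, 4 to 5 Mb, higher). Over the genome it then called 132 of 1548 windows higher and 20 lower. The same number of added peaks is a larger share of a shorter list, and the aged enriched lists were the shortest. With a pseudocount in proportion to list length, limma called 13 of 1548 windows higher and 8 lower, with 0 proximal windows among them. Taking all windows, medians of 0.064, 0.11 and 0.21 (log2) were found with the proportional pseudocount, 1 peak and 4 peaks. The call on chromosome 17 is therefore not read as a difference. Without a filter limma called 1 proximal window (chromosome 9, 3 to 4 Mb, higher), beside 83 of 2207 higher and 25 lower over the genome. With equally long lists it called 1 (chromosome 19, 5 to 6 Mb, lower), beside 44 of 1224 higher and 67 lower. Leaving out 1 sample leaves 1 in its group, which is assumed to vary like the other groups. Calls from those fits are therefore not given. Without aged enriched replicate 2 the log2 difference was −1.02 at 3 to 4 Mb of chromosome 8 for aged housing. Over both ages it was −0.94 at 4 to 5 Mb of chromosome 5. In the other alternatives the count of called proximal windows was 0 for young housing, age and the interaction. Of the named results, 9 values turned direction. They were the ends of chromosome 16 with a span of 3 Mb (−0.23) or scores of at least 100 (−0.048) and of chromosome 7 with scores of at least 100 (0.32), none of them called. For young housing they were chromosome 16 at 5 to 6 Mb with equally long lists (−0.12) or without young control replicate 1 (−0.20, against 1.43 without young control replicate 2), chromosome 8 at 3 to 4 Mb without young enriched replicate 2 (−0.033, against 0.57 without young enriched replicate 1), chromosome 18 at 5 to 6 Mb without young control replicate 1 (−0.024) and chromosome 19 at 4 to 5 Mb with scores of at least 100 (0.084). The last was the interaction at 4 to 5 Mb of chromosome 16 with scores of at least 100 (0.20).

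Counts of regions present on 1 side depend on list length by construction. Their shares over all regions were not counted under the alternatives, so these counts cannot show whether the centromeric ends differ from the rest. With scores of at least 100 they were 2 for aged enriched, 33 for aged control, 9 for young enriched, 27 for young control, 1 for the 4 control and 5 for the 4 young samples. With equally long lists they were 23, 79, 35 and 32 for the same 4 groups, 1 and 1 for enriched and control, and 5 and 7 for aged and young. With 1 sample left out, fewer samples had to agree, and the ranges were 12 to 316 (aged enriched), 166 to 715 (aged control), 60 to 298 (young enriched), 85 to 510 (young control), 0 to 3 (enriched), 6 to 21 (control), 0 to 1 (aged) and 28 to 67 (young). Regions with a peak in all samples made up 1.02% of the proximal regions with scores of at least 100, 1.07% with a limit of 5 Mb and 1.56% to 3.54% with 1 sample left out. The shares of the other autosomal regions are not set beside these values. They therefore do not show whether the centromeric ends moved apart from the rest.

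Same-numbered samples showed correlations of −0.14 to 0.096 between their deviations, so the numbers were not taken as pairs. With the replicate block the housing difference was −0.070 (exact p = 0.111), the age difference −0.0042 and the interaction −0.044, and limma called 0 proximal windows in each comparison. A block could not enter the differences within a sample. Unknown depth, 2 samples a group and lists that differ in length limit what can be seen.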
